A study of Drosophila melanogaster with 30 samples.

Results

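The genes described are 10 that build the light-sensing membrane of the fly photoreceptor and the apical side it grows from, followed in nuclear RNA of outer photoreceptors: chp, eys, prom, crb, sdt, Patj, kst, Moe, Rab6 and Rab11. They were chosen by name, for their known roles in the rhabdomere, the stalk membrane and the transport of proteins to them. The rule itself used no measured value, but the genes were chosen with earlier results of these data known. They are 10 of the 17807 gene rows of each count file. Each had a row in all 30 libraries and passed the filter on low counts, which left 14888 genes for testing.

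The rhabdomere is a tightly packed column of microvilli on the apical surface of each photoreceptor, and it holds rhodopsin and the rest of the light response. Around it lies the stalk membrane, whose extent depends on the Crumbs complex and on the spectrin and actin skeleton beneath it, and between the rhabdomeres of an ommatidium lies a matrix-filled space that keeps them apart. Because the membrane is renewed throughout adult life, it also depends on small GTPases that carry rhodopsin from the Golgi to its base.

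RNA came from nuclei of outer photoreceptors of male Drosophila melanogaster at day 30, held at 25 °C on a cycle of 12 h light and 12 h dark, and each library was made from 10 ng of RNA with depletion of fly ribosomal RNA. The flies of all 30 libraries, controls included, carried Rh1-GFPKASH, a tagged protein of the nuclear envelope by which the nuclei were enriched with an antibody, and Rh1-Gal4, a driver that is active in outer photoreceptors and expressed a short hairpin RNA (shRNA) there. The titles name as the target in 9 groups Spt5, which encodes part of a factor that travels with RNA polymerase II, dom, which encodes a remodeller of nucleosomes, Trl, Top1, cnc, TH1, Cdk12, Taf1 or Spt6, and in the control group LexA, a bacterial gene with no fly counterpart, with 3 biological replicates in each of the 10 groups. The series asks what happens to photoreceptor transcripts when Spt5 and dom are knocked down, which its title links to early degeneration of the retina. Groups follow the titles, because in 6 of the groups (Spt5, Cdk12, Taf1, Spt6, Top1 and TH1) the number inside the target's name goes up with each replicate in the genotype field, so that Spt5 replicate 2 reads sh-Spt6 there. How many flies went into a library was not given in the sources used here, and a change over time was not measured, since there is 1 age. The p-values measure the spread between these libraries, estimated over all 10 groups together and not for each group alone.

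Gene counts per library ran from 7535919 to 14659278 in Spt5, from 8585176 to 13722049 in dom and from 5413749 to 7184260 in LexA, within 4064250 (Trl replicate 2) to 18024440 (cnc replicate 2) over all 30. Levels are given as CPM, counts per 1000000 of the library size scaled by edgeR's TMM factors. None of the 9 targeted genes was called lower than LexA in its own group with edgeR (log2 fold changes -0.41 to 0.67, 1 of them at an unadjusted p under 0.05), so nuclear counts did not check the knockdown labels. That 1 is Trl, which stood at 14.0 to 21.9 CPM in the libraries labelled Trl against 8.67 to 12.4 CPM in LexA. All 10 listed markers of outer photoreceptors had counts in all 30 libraries. Spt5 replicates 1 and 2 stood apart from Spt5 replicate 3: the summed level of the 10 markers was 22103, 22012 and 54714 CPM in the 3 Spt5 libraries against 68832, 74542 and 68591 CPM in LexA. Results that rest on single Spt5 libraries are therefore given with and without them. The Spt5 and Cdk12 files also lack 2 transgene rows that the other 24 files hold, and they had 59.2 to 94.5 multiply aligned reads per 100 gene counts, against 12.8 to 33.0 in the other groups, LexA included; the part of this in the results was not tested.

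Genes of the rhabdomere and of the space between rhabdomeres come first. chp (FBgn0267435, 3R:31204180-31210730, minus strand) encodes Chaoptin, a surface adhesion protein that holds the microvilli together. eys (FBgn0031414, 2L:2311680-2358944, plus strand) encodes the secreted proteoglycan that fills the space between rhabdomeres, and prom (FBgn0259210, 2R:24415410-24428387, minus strand) a microvillar transmembrane protein that works with it in opening that space. The Crumbs complex is represented by crb (FBgn0259685, 3R:24295078-24314541, plus strand), the transmembrane determinant of the stalk, by sdt (FBgn0261873, X:8178549-8240474, plus strand), the scaffold that binds its cytoplasmic tail, and by Patj (FBgn0067864, 3L:1798803-1802184, plus strand), a multi-PDZ protein held through the scaffold. kst (FBgn0004167, 3L:3336860-3368133, plus strand) encodes the heavy beta-spectrin of the apical membrane skeleton, and Moe (FBgn0011661, X:8873012-8898332, minus strand) encodes Moesin, which ties actin to the membrane. Rab6 (FBgn0015797, 2L:12107221-12109116, minus strand) and Rab11 (FBgn0015790, 3R:21111408-21116146, plus strand) encode GTPases of the Golgi exit and of the delivery of rhodopsin to the rhabdomere base. Positions are in BDGP6, and the genes differ in build: sdt spans 61.9 kb with 11.04 kb of merged exons and 14 transcripts, whereas Rab6 spans 1.9 kb in 1 merged exon. Exons of Patj share 177 bases (5.37% of their length) with JTBR and those of eys 67 bases (0.79%) with CG9967, each on the other strand, and reads there cannot be told apart without the strand setting.

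Most of these transcripts had among the highest CPM of all tested genes, a scale that is not corrected for exon length. By mean log2 CPM over the 30 libraries chp stood at percentile 99.8 of tested genes, eys and kst at 99.6, prom and sdt at 99.4, crb at 99.1 and Moe at 97.7. The remaining ones were lower, with Rab11 at percentile 87.7, Patj at 86.5 and Rab6 at 80.8. Per kilobase of merged exon in LexA photoreceptors, so that genes can be compared, chp was the highest at 993 ± 60.9 CPM per kb, followed by prom at 438 ± 39.4 and eys at 245 ± 53.1 CPM per kb (SD, n = 3). Next came crb at 176 ± 9.64, kst at 175 ± 26.9, sdt at 151 ± 18.2 and Moe at 129 ± 20.9 CPM per kb, where kst differed from crb and from sdt by less than its own SD. Rab11 at 46.3 ± 2.75, Rab6 at 27.4 ± 7.48 and Patj at 24.7 ± 4.29 CPM per kb formed the low end, where Rab6 and Patj differed by less than the SD of Rab6. Within the Crumbs complex the level per kb of Patj was thus far below that of crb and sdt.

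**Figure D1:**
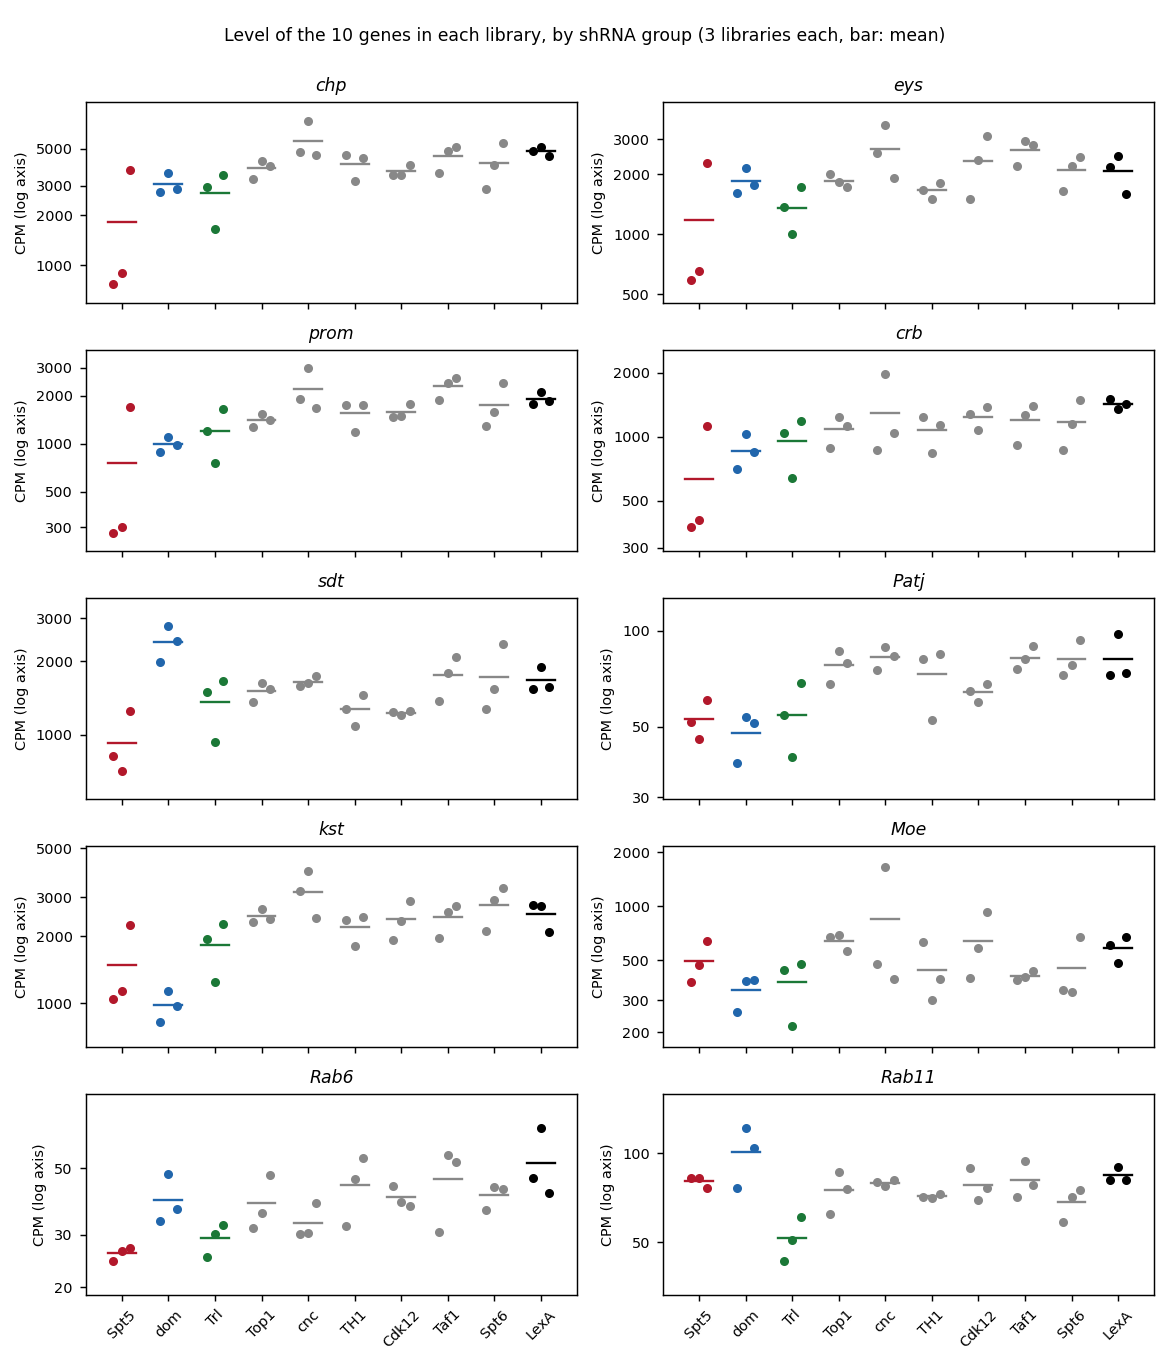
Level of each of the 10 genes in CPM (log axis) in each of 3 libraries per shRNA group, with LexA at the right and bars for the group means. Spt5 replicates 1 and 2 are the lowest pair of all libraries for chp, eys, prom, crb and sdt, and dom has the highest group mean for sdt and the lowest for kst.

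Spt5 against LexA asks which of these transcripts differ when Spt5 is targeted. Of the 10 genes, 6 fell and none rose: chp, prom, crb, sdt, Patj and Rab6, spread over the rhabdomere, the Crumbs complex and transport. For comparison, 5.42% of all tested genes were called lower and 11.0% higher. All 10 log2 fold changes were negative, with a median of -0.84 beside 0.05 over all tested genes, and for 6 of the 10 all 3 Spt5 libraries lay below every LexA library (12.3% of tested genes). The same 6 were those called. Throughout, an adjusted p comes from edgeR's two-sided quasi-likelihood F test with Benjamini-Hochberg adjustment over all tested genes, a gene is called where it is under 0.05, a log2 fold change is the group named first over the other, and n = 3 libraries per group.

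Of the 10 genes, chp and prom had the largest log2 fold changes in Spt5, with replicates far apart. chp stood at 776, 896 and 3751 CPM in the Spt5 libraries, against 4852, 5126 and 4532 CPM in LexA, so that its mean was 1807 ± 1684 CPM in Spt5 and 4836 ± 297 CPM in LexA (log2 fold change of -1.42 ± 0.39 SE with an adjusted p of 0.0125). Spt5 replicates 1 and 2 lay far below LexA, replicate 3 came near to it, and the groups did not overlap. prom was at 278, 301 and 1699.7 CPM in Spt5 against 1793, 2114 and 1845 CPM in LexA (log2 fold change of -1.34 ± 0.43 SE with an adjusted p of 0.0311). Its first pair of libraries lay lower still relative to LexA, and replicate 3 just under the lowest LexA library. eys was at 589, 652 and 2283 CPM in Spt5 against 2170.4, 2477 and 1589.7 CPM in LexA and was not called (log2 fold change of -0.82 ± 0.36 SE with an adjusted p of 0.122, 95% interval -1.56 to -0.09). Here replicate 3 lay inside the LexA range. Without Spt5 replicate 3 the log2 fold changes were -2.53 for chp, -2.72 for prom and -1.74 for eys, all called. Without replicate 1 they were -1.04 (adjusted p 0.125), -0.92 (0.213) and -0.48 (0.517), and without replicate 2 -1.08 (0.121), -0.94 (0.221) and -0.52 (0.517). Leaving out a LexA library also ended the call of prom each time (adjusted p 0.0563 to 0.107) and that of chp without LexA replicate 2 (0.0517).

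On the CPM scale all 3 genes of the Crumbs complex fell in Spt5, whereas per outer photoreceptor marker sdt and Patj were higher in Spt5 replicates 1 and 2 than in LexA. crb was at 378, 406 and 1116 CPM in the Spt5 libraries against 1508, 1351 and 1431 CPM in LexA (log2 fold change of -1.17 ± 0.34 SE with an adjusted p of 0.0168). The scaffold gene sdt was at 815, 708 and 1253 CPM in Spt5 against 1536, 1900.2 and 1573 CPM in LexA (log2 fold change of -0.85 ± 0.24 SE with an adjusted p of 0.0161), with its 3 Spt5 libraries closer to each other than those of crb were. Patj was at 51.8, 45.9 and 60.6 CPM in Spt5 against 72.6, 97.6 and 73.8 CPM in LexA (log2 fold change of -0.62 ± 0.20 SE with an adjusted p of 0.0333). None of the 9 Spt5 values reached the LexA range of its gene. Without Spt5 replicate 3 the log2 fold changes were -1.86 for crb, -1.13 for sdt and -0.73 for Patj, all called. Without Spt5 replicate 1 (-0.89, -0.75 and -0.59, adjusted p 0.123 to 0.150) or 2 (-0.93, -0.69 and -0.53, adjusted p 0.142 to 0.191) none was called. Without LexA replicate 2 sdt (-0.75, adjusted p 0.0956) and Patj (-0.47, adjusted p 0.231) were not called either, while crb was (adjusted p 0.0494).

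In the fit used throughout, the membrane skeleton genes did not pass the threshold in Spt5. kst stood at 1048, 1137 and 2260.4 CPM in Spt5 against 2783, 2735 and 2088 CPM in LexA (log2 fold change of -0.77 ± 0.27 SE with an adjusted p of 0.0510), just above the threshold, with replicate 3 inside the LexA range. It was called without Spt5 replicate 3 (log2 fold change -1.21, adjusted p 0.00103). On all 30 libraries it was also called with DESeq2 (adjusted p 0.0114). In edgeR it was called with DESeq2's size factors (0.0363), a replicate block (0.0306) or the ratio of reads outside features as a covariate (0.0398). It was not called without a filter (0.0549), on the 6 libraries alone (0.242) or with any other Spt5 or LexA library left out (0.0531 to 0.298). Moe was at 381, 472 and 639.7 CPM in Spt5 against 609, 484 and 672 CPM in LexA (log2 fold change of -0.24 ± 0.41 SE with an adjusted p of 0.812, 95% interval -1.08 to 0.59), and its groups overlapped.

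Of the GTPases of transport, Rab6 fell on the CPM scale and Rab11 was not called. Rab6 was at 24.5, 26.4 and 27.1 CPM in the Spt5 libraries against 46.2, 68.0 and 41.4 CPM in LexA (log2 fold change of -1.0 ± 0.23 SE with an adjusted p of 0.00509). In contrast to the genes above, its 3 Spt5 libraries were alike, with a mean of 26.0 ± 1.38 CPM in Spt5 and 51.9 ± 14.2 CPM in LexA, where replicate 2 was the high one. Leaving out Spt5 replicates moved it between -1.03 and -0.94, and it lost its call without Spt5 replicate 1 (adjusted p 0.0582) and without LexA replicate 2 (-0.75, adjusted p 0.0578). Rab11 was at 82.7, 82.6 and 76.3 CPM in Spt5 against 81.2, 89.8 and 81.1 CPM in LexA (log2 fold change of -0.06 ± 0.18 SE with an adjusted p of 0.905, 95% interval -0.42 to 0.30). Its 6 libraries lay close together, and the interval reaches -0.42 on the log2 scale.

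**Figure D2:**
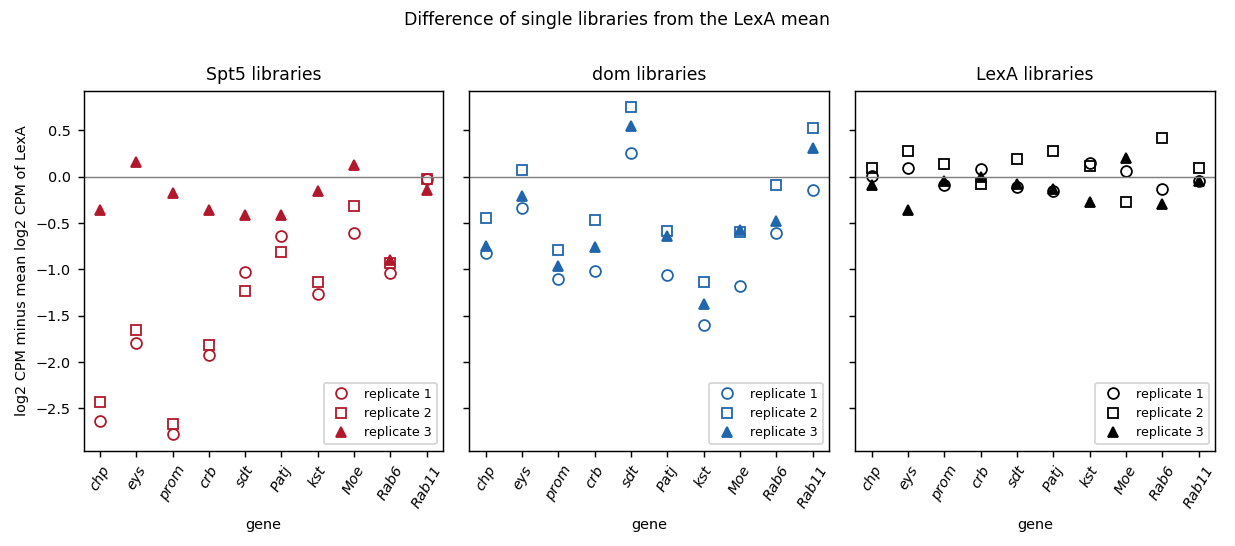
Difference of log2 CPM of each gene from the LexA mean in each single library of Spt5, dom and LexA; symbols mark the replicates. In Spt5, replicates 1 and 2 differ by as much as -2.78 (prom, replicate 1) and replicate 3 by -0.90 (Rab6) to 0.16 (eys), and for chp, eys, prom and crb the 3 dom libraries lie closer together.

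The count of called genes in Spt5 depended on single libraries. Without Spt5 replicate 3 it was 8 of 10 (24.2% of all genes called in either direction), adding eys and kst. Without Spt5 replicate 1 it was 0 (1.58%), without Spt5 replicate 2 it was 1, Rab6 (3.83%), and without LexA replicate 2 it was 1, crb (7.02%). A fit on the 6 libraries of Spt5 and LexA alone called 0 of the 10, in a fit that called 0.0179% of genes. There the SE was 0.62 for chp and 0.69 for prom, beside 0.39 and 0.43 in the fit that shares the spread of all groups. For Moe it was smaller, 0.28 beside 0.41. The median difference of the 10 genes from the LexA mean was -1.15, -1.19 and -0.26 in Spt5 replicates 1, 2 and 3.

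Markers of other cell types moved with these differences. Their summed levels were higher in Spt5 replicates 1 and 2: the 6 markers of other neurons summed to 1047, 887 and 294 CPM in the Spt5 libraries against 312, 274 and 220.1 CPM in LexA, and all 6 were called higher. The 6 glial markers summed to 870.0, 778 and 369.9 CPM in Spt5 against 350.2, 291 and 529 CPM in LexA (4 called higher), and the 7 of cone, pigment and corneal cells to 659, 602 and 195 CPM in Spt5 against 217, 186 and 185 CPM in LexA (5 higher). Inner photoreceptor markers (4 of 6 higher) summed to 374 to 1028 CPM in Spt5 against 291 to 335 CPM in LexA. Fat body and hemocyte markers (3 of 6 higher) summed to 322 to 1107 CPM in Spt5 against 225 to 344 CPM in LexA. None of these markers was at 0 in either group, and 7 of the 10 outer photoreceptor markers were called lower (median log2 fold change -1.13). In such bulk samples fewer nuclei of a type and less RNA per nucleus cannot be told apart, and the part of these shifts in the results was not tested.

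Set against the outer photoreceptor markers of the same library, the genes differed among themselves. Per 1000 CPM of those markers, chp had 35.1, 40.7 and 68.6 CPM in Spt5 against 70.5, 68.8 and 66.1 CPM in LexA, and prom had 12.6, 13.7 and 31.1 CPM in Spt5 against 26, 28.4 and 26.9 CPM in LexA. On this scale both stayed low in Spt5 replicates 1 and 2 only. crb had 17.1, 18.5 and 20.4 CPM in Spt5 against 21.9, 18.1 and 20.9 CPM in LexA, with overlapping groups, and sdt had 36.9, 32.2 and 22.9 CPM in Spt5 against 22.3, 25.5 and 22.9 CPM in LexA, where replicates 1 and 2 lay above every LexA library. The direction for sdt in Spt5 against LexA thus depends on whether all genes or photoreceptor markers set the scale. Per 1000 CPM of markers Rab6 had 1.11, 1.2 and 0.495 CPM in Spt5 against 0.671, 0.912 and 0.604 CPM in LexA, which likewise puts replicates 1 and 2 above LexA. Patj with 2.34, 2.09 and 1.11 CPM in Spt5 against 1.05, 1.31 and 1.08 CPM in LexA, and kst with 47.4, 51.7 and 41.3 CPM in Spt5 against 40.4, 36.7 and 30.4 CPM in LexA, had Spt5 replicates 1 and 2 above LexA by this scale too, kst also replicate 3. Moe had 17.2, 21.4 and 11.7 CPM in Spt5 against 8.85, 6.49 and 9.79 CPM in LexA, and Rab11 had 3.74, 3.75 and 1.39 CPM in Spt5 against 1.18, 1.2 and 1.18 CPM in LexA. All 3 Spt5 libraries of Moe and of Rab11 thus lay above every LexA library. For eys the values were 26.7, 29.6 and 41.7 CPM in Spt5 and 31.5, 33.2 and 23.2 CPM in LexA, with overlap. The summed markers were themselves lower in Spt5 (22103, 22012 and 54714 CPM) than in LexA (68591 to 74542 CPM). A gene with a level CPM, such as Rab11, therefore comes out higher per marker. The ratio is not a level per photoreceptor, and the part of other cell types in it was not tested.

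In dom against LexA, the chromatin remodeller knockdown, 2 of the 10 genes fell, kst and Patj, and none rose. Of all tested genes 10.4% were called in either direction, 893 lower and 650 higher of 14888. The median log2 fold change was -0.70 beside 0.21 over all tested genes, with 8 negative and 2 positive values. For 6 of the 10 all 3 dom libraries lay below every LexA library (13.3% of tested genes), and for sdt all 3 lay above (15.6% of tested genes), so that 1 of 10 is no more than the share over all genes. For chp, eys, prom and crb the dom libraries lay closer together than those of Spt5. All comparisons with LexA share the same 3 LexA libraries.

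The spectrin gene kst showed the clearest difference of the 10 genes in dom. It stood at 826, 1137 and 969.7 CPM in dom against 2783, 2735 and 2088 CPM in LexA, with a mean of 978 ± 155 CPM in dom and 2536 ± 388 CPM in LexA (log2 fold change of -1.37 ± 0.28 SE with an adjusted p of 0.00165). All 3 dom libraries lay far below the lowest LexA library, and the call held without each of the 6 libraries (-1.49 to -1.27). Moe, the other skeleton gene, was at 257, 384 and 392 CPM in dom against 609, 484 and 672 CPM in LexA; its groups did not overlap, yet it was not called (log2 fold change of -0.77 ± 0.41 SE with an adjusted p of 0.265).

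Of the 3 Crumbs complex genes only Patj was called in dom. Patj was at 38.6, 53.7 and 51.5 CPM in dom against 72.6, 97.6 and 73.8 CPM in LexA (log2 fold change of -0.76 ± 0.20 SE with an adjusted p of 0.0150), and its call was lost without dom replicate 1 (adjusted p 0.0672), dom replicate 3 (0.0625) or LexA replicate 2 (-0.60, adjusted p 0.139). crb was at 702, 1032 and 843 CPM in dom against 1508, 1351 and 1431 CPM in LexA (log2 fold change of -0.74 ± 0.34 SE with an adjusted p of 0.180). sdt was at 1985, 2802 and 2427 CPM in dom against 1536, 1900.2 and 1573 CPM in LexA (log2 fold change of 0.53 ± 0.24 SE with an adjusted p of 0.185). So crb lay below and sdt above every LexA library, neither with an adjusted p under the threshold.

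The genes of the rhabdomere and of the space between rhabdomeres, and those of transport, were not called in dom. chp was at 2743, 3557 and 2875 CPM in dom against 4852, 5126 and 4532 CPM in LexA (log2 fold change of -0.66 ± 0.38 SE with an adjusted p of 0.322), and prom at 890.3, 1104 and 980.5 CPM in dom against 1793, 2114 and 1845 CPM in LexA (log2 fold change of -0.95 ± 0.43 SE with an adjusted p of 0.169). Both lay below every LexA library. eys was at 1617, 2149.8 and 1767 CPM in dom and 2170.4, 2477 and 1589.7 CPM in LexA, with overlapping groups (log2 fold change of -0.17 ± 0.35 SE with an adjusted p of 0.853). Rab6 was at 33.2, 47.8 and 36.4 CPM in dom against 46.2, 68.0 and 41.4 CPM in LexA (log2 fold change of -0.41 ± 0.23 SE with an adjusted p of 0.297), and Rab11 at 76.0, 122 and 104 CPM in dom against 81.2, 89.8 and 81.1 CPM in LexA (log2 fold change of 0.26 ± 0.18 SE with an adjusted p of 0.423). The groups of Rab6 and of Rab11 each overlapped with LexA.

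Estimating the spread from the 6 libraries of dom and LexA alone gave more calls, 6 of the 10 (21.8% of all genes called), namely chp, prom, crb, Patj, kst and Moe, all lower. Summed outer photoreceptor markers were 48772, 62425 and 54330.2 CPM in dom against 68832, 74542 and 68591 CPM in LexA (2 of 10 called lower), and those of other neurons 315, 522 and 468 CPM in dom against 312, 274 and 220.1 CPM in LexA (2 of 6 called higher). Per 1000 CPM of outer photoreceptor markers, kst had 16.9, 18.2 and 17.8 CPM in dom against 40.4, 36.7 and 30.4 CPM in LexA, again without overlap. sdt had 40.7, 44.9 and 44.7 CPM in dom against 22.3, 25.5 and 22.9 CPM in LexA, also without overlap. Patj had 0.791, 0.86 and 0.948 CPM in dom against 1.05, 1.31 and 1.08 CPM in LexA. Rab11 had 1.56, 1.95 and 1.92 CPM in dom against 1.18, 1.2 and 1.18 CPM in LexA, above every LexA library. On this scale chp, prom and crb lay below every LexA library, and eys, Moe and Rab6 overlapped with LexA.

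**Figure D3:**
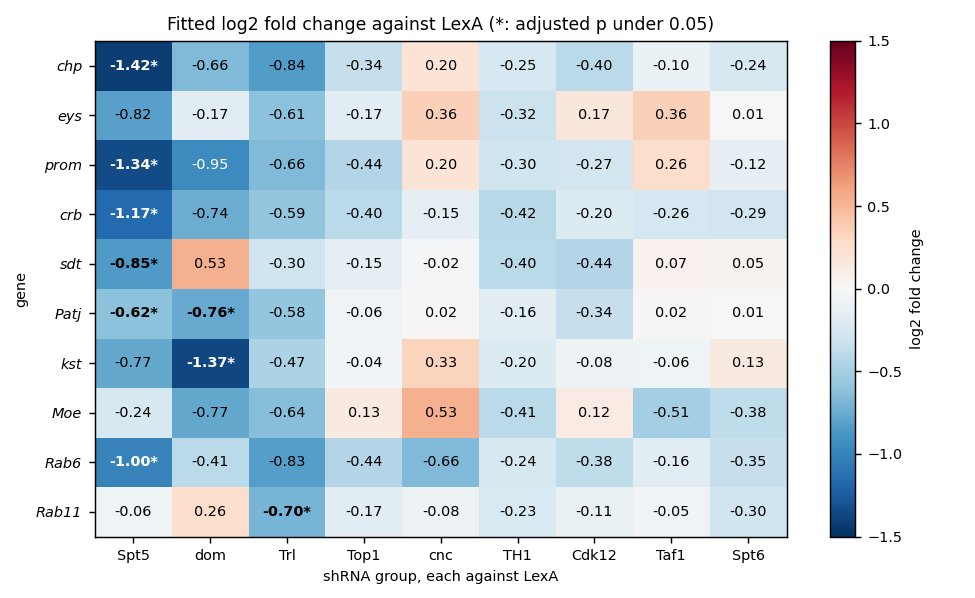
Fitted log2 fold changes against LexA of the 10 genes (rows) in the 9 knockdown groups (columns), with an asterisk where the adjusted p was under 0.05. Calls stand in Spt5 (6), dom (2) and Trl (1), and the other 6 columns hold values between -0.66 and 0.53 with none called.

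Spt5 was then set directly against dom, since a call in 1 group and not in the other does not show a difference between them. Of the 10 genes only sdt was called, lower in Spt5 (4.76% of all tested genes were lower in this comparison). Its 3 Spt5 libraries (815, 708 and 1253 CPM) all lay below the 3 dom libraries (1985, 2802 and 2427 CPM), with means of 926 ± 289 CPM in Spt5 and 2405 ± 409 CPM in dom (log2 fold change of -1.38 ± 0.25 SE with an adjusted p of 4.3e-04, 95% interval -1.88 to -0.87). The call held without each single library (-1.66 to -1.20), and was missed by a small margin in a fit on the 6 libraries alone (-1.45, adjusted p 0.0538). Relative to dom, kst had a log2 fold change of 0.60 in Spt5 (SE 0.27, adjusted p 0.191, 95% interval 0.04 to 1.16) and Rab6 one of -0.59 (SE 0.23, adjusted p 0.114, 95% interval -1.06 to -0.12). All 3 Rab6 libraries of Spt5 lay below every dom library. Such a separation was found for 2 of the 10 genes, sdt and Rab6, beside 10.7% of all tested genes. The other 7 genes had log2 fold changes between -0.76 (chp) and 0.53 (Moe), with wide intervals (-1.55 to 0.03 for chp and -0.31 to 1.36 for Moe). Without Spt5 replicate 3, 5 genes were called, all lower in Spt5: chp, eys, prom, crb and sdt (18.5% of genes called). Per 1000 CPM of outer photoreceptor markers sdt had 36.9, 32.2 and 22.9 CPM in Spt5 against 40.7, 44.9 and 44.7 CPM in dom, again without overlap.

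**Figure D4:**
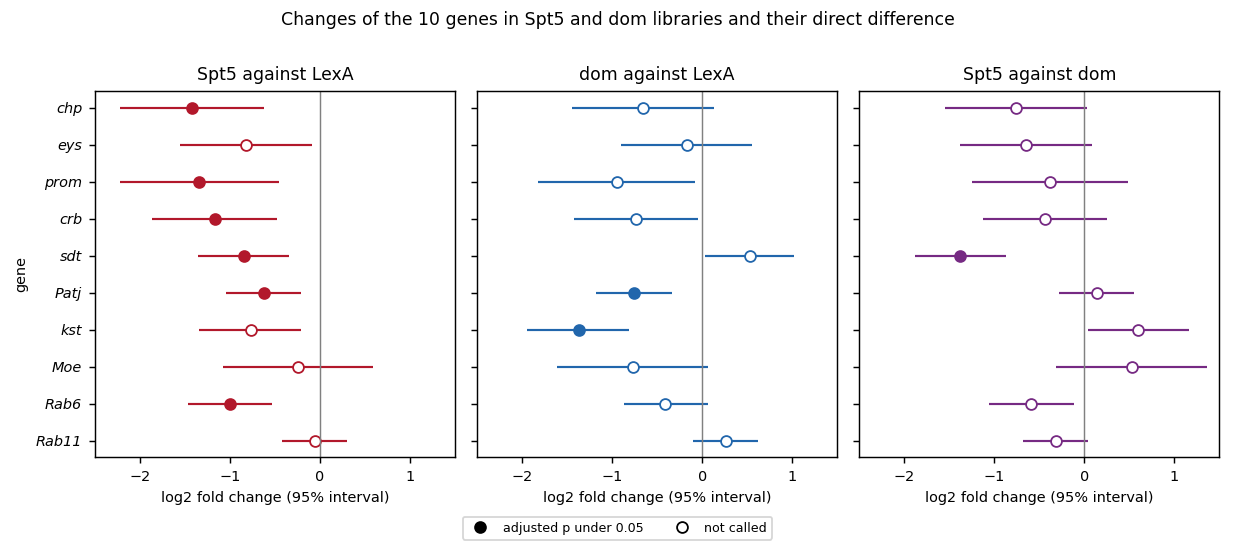
Log2 fold changes with 95% intervals for Spt5 against LexA, dom against LexA and Spt5 against dom; filled points were called. Only for sdt does the direct comparison pass the threshold, at -1.38, beside -0.85 in Spt5 and 0.53 in dom against LexA on the CPM scale.

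Spt5 could also be set against Cdk12, a group named for a kinase of transcription whose files share the layout of the Spt5 files. No gene of the 10 was called (6.74% of all tested genes were), with 6 at an unadjusted p under 0.05 and a median log2 fold change of -0.66 beside -0.03 over all genes. The smallest adjusted p was that of crb, at 378, 406 and 1116 CPM in Spt5 and 1274, 1070.0 and 1384 CPM in Cdk12 (log2 fold change of -0.97 ± 0.34 SE with an adjusted p of 0.0790). chp was at 776, 896 and 3751 CPM in Spt5 and 3494, 3503 and 4004 CPM in Cdk12 (log2 fold change of -1.02 ± 0.39 SE with an adjusted p of 0.114), with replicate 3 of Spt5 inside the Cdk12 range. DESeq2 called 5 of the 10 (chp, eys, crb, kst and Rab6; 11.8% of genes), and edgeR without Spt5 replicate 3 also called 5 (chp, eys, prom, crb and kst; 19.3%). All of these were lower in Spt5.

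In the libraries labelled Trl, the gene of the GAGA factor, Rab11 alone was called, lower than in LexA (1.91% of all tested genes were). Rab11 stood at 43.2, 50.9 and 60.9 CPM in Trl against 81.2, 89.8 and 81.1 CPM in LexA, a mean of 51.7 ± 8.87 CPM in Trl and 84.0 ± 5.0 CPM in LexA (log2 fold change of -0.70 ± 0.18 SE with an adjusted p of 0.0388). On the CPM scale no Trl library reached the LexA range. The call was lost without Trl replicate 1 (-0.59, adjusted p 0.164), Trl replicate 2 (-0.64, adjusted p 0.227) or any 1 LexA library (-0.74 to -0.66, adjusted p 0.0669 to 0.191). Rab6 was at 25.3, 30.2 and 32.2 CPM in Trl against 46.2, 68.0 and 41.4 CPM in LexA, at the edge of the threshold (log2 fold change of -0.83 ± 0.23 SE with an adjusted p of 0.0501), and Patj at 54.5, 40.1 and 68.7 CPM in Trl against 72.6, 97.6 and 73.8 CPM in LexA (log2 fold change of -0.58 ± 0.20 SE with an adjusted p of 0.0889). Both lay below every LexA library, as did 7 of the 10 genes in all (17.3% of tested genes). The median log2 fold change was -0.62 beside 0.21 over all genes. chp was at 2970.2, 1654 and 3489.5 CPM in Trl against 4852, 5126 and 4532 CPM in LexA (log2 fold change of -0.84 ± 0.39 SE with an adjusted p of 0.165), with replicate 2 the lowest, and that library also had the most reads outside annotated features of all 30, 171.7 per 100 gene counts, against 79.3 to 92.4 in LexA. With this ratio as a covariate Rab11 had a log2 fold change of -0.46 (adjusted p 0.295). With DESeq2's size factors in place of TMM the median of all genes was 0.39, and Rab11 had -0.54 (adjusted p 0.0592). Summed outer photoreceptor markers were 52409.9, 36922 and 58578 CPM in Trl against 68832, 74542 and 68591 CPM in LexA. Per 1000 CPM of them Rab11 had 0.824, 1.38 and 1.04 CPM in Trl against 1.18, 1.2 and 1.18 CPM in LexA. Trl replicate 2 thus lay above every LexA library on this scale, and Rab6 and Patj overlapped with LexA there too. The part of the markers in the result was not tested.

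The other 6 knockdowns gave no call among the 10 genes, in groups where few genes were called at all: Top1 (0.430% of tested genes in either direction), cnc (0.289%), TH1 (0.202%), Cdk12 (0.195%), Taf1 (0.148%) and Spt6 (0.107%). DESeq2 called 0 of the 10 in each of the 6 as well. At an unadjusted p under 0.05 the count was 1 in cnc and 0 in the other 5. That 1 was Rab6, at 30.2, 30.3 and 38.2 CPM in cnc against 46.2, 68.0 and 41.4 CPM in LexA, below every LexA library (log2 fold change of -0.66 ± 0.23 SE with an adjusted p of 0.397). Only 1 of the 10 genes was separated so in cnc, near the 7.93% found over all tested genes. Median log2 fold changes were -0.27 in TH1, -0.24 in Cdk12, -0.18 in Spt6, -0.17 in Top1, -0.05 in Taf1 and 0.11 in cnc.

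Within these 6 groups no library was as low as Spt5 replicates 1 and 2 in chp, prom or crb. Over their 18 libraries chp ran from 2854 through a median of 4104 to 7362 CPM, prom from 1184 through 1714 to 2991 CPM and crb from 842 through 1144 to 1968 CPM. eys ran from 1505 to 3562 CPM, sdt from 1084 to 2361 CPM, kst from 1815 to 3935 CPM and Moe from 302 to 1665 CPM. At the lower levels Patj ran from 52.4 to 93.8 CPM, Rab6 from 30.2 to 55.3 CPM and Rab11 from 58.6 to 93.7 CPM. The upper ends of chp, eys, prom, crb, kst and Moe were all those of cnc replicate 2, the deepest library, which for each of these genes was the highest of all 30. Moe stood at 479, 1665 and 396 CPM in cnc against 609, 484 and 672 CPM in LexA, so that 1 library carried the cnc mean of 847 ± 709.9 CPM against 588 ± 95.5 CPM in LexA (log2 fold change of 0.53 ± 0.41 SE with an adjusted p of 0.818).

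In 1 F test over all 10 groups, 5 of the 10 genes varied: kst (F 5.94, adjusted p 0.00226), sdt (F 4.68, adjusted p 0.00704), Patj (F 4.36, adjusted p 0.00971), Rab11 (F 3.72, adjusted p 0.0189) and Rab6 (F 3.45, adjusted p 0.0262). Of all tested genes 29.1% did. The 5 that did not pass were chp (adjusted p 0.0648), prom (0.0694), eys (0.110), Moe (0.152) and crb (0.180). Without Spt5 replicate 3 the count was 9, and it was 3 without Spt5 replicate 1, Spt5 replicate 2, Trl replicate 1 or Trl replicate 2. The share over all genes in these fits is not given here, so such counts cannot be read as particular to the 10 genes.

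The order of group means differed from gene to gene. Spt5 was the lowest group for chp, eys, prom, crb, sdt and Rab6, dom for Patj, kst and Moe, and Trl for Rab11. LexA was the highest group for crb and Rab6, dom for sdt and Rab11, Taf1 for prom, and cnc for chp, eys, Patj, kst and Moe. Between the lowest and the highest group mean lay a 3.26-fold range for kst, 3.08-fold for chp and 3.02-fold for prom, against 1.72-fold for Patj. Some neighbours in these orders lay within each other's spread: for chp, Trl at 2704 ± 946 CPM and dom at 3059 ± 437 CPM, and for crb, Spt5 at 633 ± 418 CPM and dom at 859 ± 165 CPM.

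Many knockdown libraries lay under all 3 LexA libraries, called or not. crb did so in 23 of the 27 knockdown libraries, prom in 21, chp in 20, Rab11 in 19, and Rab6 and Moe in 18 each, where the median over all tested genes was 6 of 27. At least as many were found for 1.91% of tested genes in the case of crb, 4.07% for prom and 5.55% for chp. The share was 7.07% for Rab11 and 8.94% for Rab6 and for Moe. sdt and Patj lay under LexA in 14 libraries each (19.3% of tested genes) and kst in 10 (34.4%). eys, at 6 of 27, was like the median gene. Since all 27 were set against the same 3 LexA libraries, the libraries are not independent in this count.

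Partners of these genes in the cell were read from 4 lists of 78 genes in all, of which 72 were tested. In Spt5, 18 of the 72 fell and 3 rose, beside 5.42% and 11.0% of all genes, and their median was -0.35 on the log2 scale. Without Spt5 replicate 3, 22 fell and 4 rose (9.29% and 14.9% of all genes), and the calls over all genes moved as well in the other fits. Without Spt5 replicate 1 none of the 72 fell and 1 rose, where 59 of 15417 genes fell and 185 rose. Without Spt5 replicate 2, 1 of the 72 fell and 3 rose, where 89 of 15484 genes fell and 504 rose. Without LexA replicate 2, 6 of the 72 fell and 3 rose, where 271 of 15507 genes fell and 818 rose. All partner values are on the CPM scale. Outer photoreceptor markers had a median log2 fold change of -1.13 in Spt5 against LexA, and the partners were not set against them.

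Partners of Crumbs and of the cell junctions gave 5 lower and 1 higher of 18 in Spt5. dlg1, a basolateral scaffold, averaged 1576 ± 1059 CPM in Spt5 and 3837 ± 367 CPM in LexA (log2 fold change of -1.28, adjusted p 0.00573; the other partners are given in the same way). shg, the fly E-cadherin (-0.97, adjusted p 0.00701), and yrt, a FERM protein that restrains Crumbs (-0.63, adjusted p 0.0176), fell as well, whereas ex, a FERM protein that binds Crumbs, rose (1.04, adjusted p 0.00320). Of the 20 actin and membrane genes 6 fell and 1 rose. Those named by the rule were rtp, which encodes retinophilin (-1.22, adjusted p 0.00582), btsz, whose protein binds Moesin (-1.02, adjusted p 0.00706), and Slik, a kinase that phosphorylates Moesin (-1.09, adjusted p 0.0122), and the one that rose was sn, the actin bundler fascin (1.16, adjusted p 0.00365). The 95% interval of Moe in Spt5 (-1.08 to 0.59) includes the value of btsz, and the difference between these genes was not tested.

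Of 27 tested transport genes, 3 fell in Spt5 and none rose. They were Rab5 of early endosomes (-0.78, adjusted p 0.0213), Rab7 of late endosomes (-0.68, adjusted p 0.0253) and Rip11, a partner of Rab11 (-0.65, adjusted p 0.0417). Of 7 adhesion and photoreceptor identity genes, 4 fell, among them the adhesion gene rst (-1.20, adjusted p 0.00396), and Pph13 (-1.34, adjusted p 0.00428) and gl (-1.35, adjusted p 0.0110), which encode transcription factors of photoreceptors. Cad99C, a protocadherin of microvilli, rose (1.26, adjusted p 0.00395).

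In dom, 9 of the 72 rose and 9 fell, beside 10.4% of all genes called in either direction, and their median was -0.06 on the log2 scale. The count of those that fell was 1 without dom replicate 3 or LexA replicate 2 (343 of 15420 and 329 of 15507 genes in all), 4 without dom replicate 1 (460 of 15296) and 5 without dom replicate 2 (440 of 15423), while that of those that rose stayed between 6 and 9. Among Crumbs and junction partners 3 rose and 6 fell. cora, a FERM protein of septate junctions, averaged 1248 ± 259 CPM in dom and 417 ± 26.0 CPM in LexA (1.58, adjusted p 1.9e-05), and l(2)gl (1.17, adjusted p 0.00510) and ex (0.66, adjusted p 0.0363) rose too. shg (-0.98, adjusted p 0.00755), scrib (-0.98, adjusted p 0.00783) and dlg1 (-1.24, adjusted p 0.00821) fell, so that within the basolateral trio of dlg1, scrib and l(2)gl the signs differed.

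Of the 20 actin and membrane genes 4 rose and 2 fell in dom. tsr, the actin-severing cofilin (0.95, adjusted p 7.2e-04), Act5C, a cytoplasmic actin (1.33, adjusted p 0.00643), and chic, the actin-binding profilin (0.98, adjusted p 0.0160), were higher than in LexA. btsz (-0.99, adjusted p 0.0106) and Slik (-0.95, adjusted p 0.0395) were lower. Of the transport genes pcs, which encodes an activator of Rab11, rose (1.03, adjusted p 7.1e-04) and Exo70 of the exocyst fell (-0.69, adjusted p 0.0332). Cad99C rose (1.14, adjusted p 0.00635).

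Set directly against dom, Spt5 had 14 of the 72 partners lower and none higher, beside 4.76% of all genes lower and 3.43% higher. Among them were cora (-1.38, adjusted p 9.7e-05) and baz, the fly Par-3 (-1.06, adjusted p 0.00260), tsr (-1.03, adjusted p 1.9e-04) and sqh, a myosin light chain (-1.10, adjusted p 0.00122), pcs (-0.88, adjusted p 0.00284) and Rab7 (-0.83, adjusted p 0.0113), and rst (-1.15, adjusted p 0.00468). Without Spt5 replicate 1 or 2 the count of those lower was 7 each (435 of 15417 and 403 of 15484 genes in all), and without Spt5 replicate 3 it was 23, beside 3 higher (1191 and 1658 of 15411). Against Cdk12, Spt5 had 5 of the 72 called, 3 lower and 2 higher, where 1.01% of all genes were lower and 5.73% higher. The lower ones were baz (-0.71, adjusted p 0.0492), ninaA, a chaperone of rhodopsin (-1.20, adjusted p 0.00770), and Pph13 (-1.06, adjusted p 0.0275), and the higher ones sn (0.86, adjusted p 0.0238) and Cad99C (0.89, adjusted p 0.0374). In Trl 3 transport genes fell and no partner rose, beside 1.91% of all genes lower. ninaA averaged 14.9 ± 7.78 CPM in Trl and 42.0 ± 4.97 CPM in LexA (-1.49, adjusted p 0.00782), and Rab4 of recycling endosomes was lower too (-0.92, adjusted p 0.0235). Without Trl replicate 1 or Trl replicate 2 none of the 72 was called (30 of 15327 and 22 of 15104 genes in all were lower), without LexA replicate 2 the count of those lower was 1 (27 of 15507), and without Trl replicate 3 it was 14 (885 of 15461). In the remaining 6 groups none of the 72 was called.

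The levels of the 10 genes over the 30 libraries were compared with each other and with 4385 named genes, as a description, since libraries share groups, depth and cell makeup. Of the 45 pairs, 5 had a Pearson r of log2 CPM of 0.90 or more: chp with prom (0.97), crb (0.93) and eys (0.90), prom with crb (0.92) and eys with prom (0.90). Their rank correlations (Spearman rho) were lower, from 0.75 for chp with eys to 0.92 for chp with prom. The median r over pairs was 0.51, and 9 pairs had an r under 0.20. kst and Rab11 had the lowest r (-0.13). Taking deviations from the group means, chp and prom had 0.99, and sdt and kst had 0.79, where over all libraries they had 0.17. For sdt and Patj the values were 0.84 within groups and 0.37 over all libraries.

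**Figure D5:**
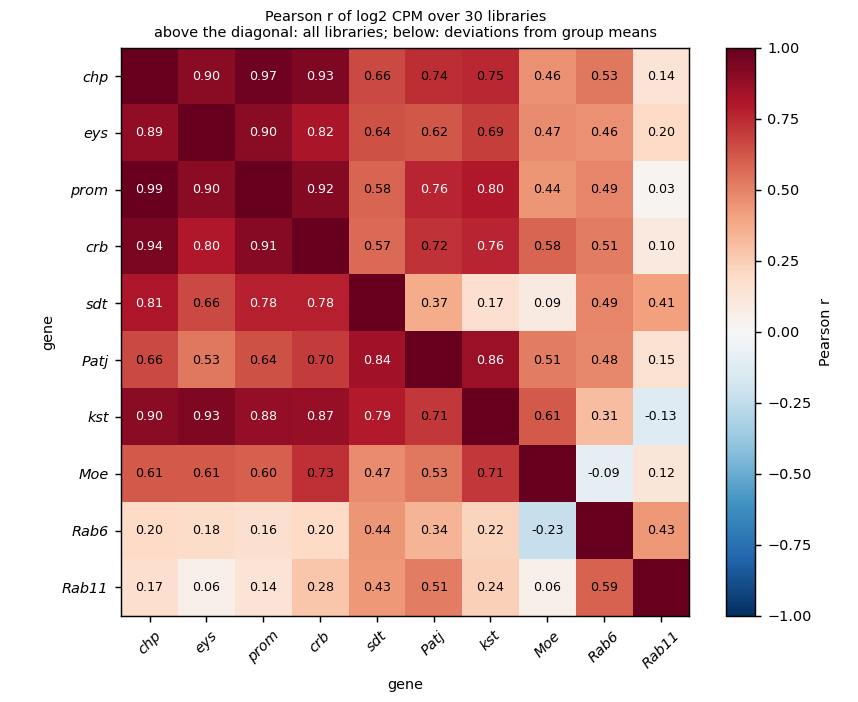
Pearson r of log2 CPM for each pair of the 10 genes over 30 libraries, above the diagonal for all libraries and below it for deviations from group means. chp, eys, prom and crb form a block of 0.82 or more above the diagonal. Spearman rho of these pairs, not drawn, ran from 0.57 (eys with crb) to 0.92 (chp with prom).

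The named genes most like chp were Fbxl4 (r 0.98, rho 0.96) and prom (r 0.97, rho 0.92), and those most like prom were retn and ninaC (r 0.98 each), ninaC being the myosin that lies in the rhabdomere. eys was most like rdgA, the diacylglycerol kinase of the light response, and Gbeta76C, its G protein subunit (r 0.91 each). crb was most like MICU3 (0.97) and Efa6 (0.95), sdt like CarT (0.91) and Lrch (0.90), and Patj like Spn and dbo (0.94 each). For kst they were OtopLa and Pura (0.95 each), and for Moe, Prosap (0.88) and tim (0.87). Rab6 had the lowest r of the 10, with Ca-Ma2d and Tbcd (0.85 each), and Rab11 was most like red (r 0.89, rho 0.67) and cnc (r 0.88, rho 0.73).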

How the data were processed

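Nuclear RNA libraries of 10 shRNA groups with 3 replicates each were analysed from whole-number counts of reads per gene, deposited by the authors as 1 file per library. Per the submitters' processing notes, reads were trimmed with Trimmomatic 0.39, aligned with HISAT2 to BDGP6 and counted with HTSeq; strand setting, feature type and annotation release are not given in the sources used here. Summary rows that name no gene held 51.8% to 74.5% of reads and were left out of library sizes and tests. Positions and exon lengths are from the Ensembl BDGP6 annotation.

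Counts were filtered with edgeR 4.0.16 in R 4.3.3 (minimum count 10, minimum total 15) and scaled by TMM. All 30 libraries entered 1 quasi-likelihood fit with a mean per group, and comparisons were two-sided F tests with Benjamini-Hochberg adjustment and a threshold of 0.05. The SE of a log2 fold change is its size divided by the root of F, and intervals are at 95%. For log2 CPM a prior count of 2 was added. No molecular identifiers are named in the sources used here. The depth of 4064250 to 18024440 gene counts per library gave every member 140 counts or more in every library. Scripts were tested on simulated data.

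Alternatives were DESeq2 1.42.0, its size factors in edgeR, no filter, a replicate block, the ratio of reads outside features as a covariate, the 2 compared groups alone and each library left out; leaving libraries out of the partner counts was added after seeing the data. Replicate numbers did not pair the libraries: in no comparison were all 3 correlations of same-numbered deviations over 0.1 (0.01, 0.07 and 0.12 for Spt5 against LexA).

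The members and lists were chosen with earlier results of these data known. Of 78 partner genes 72 were tested. The symbols zip, Sip1, prominin-like, hbs and otd matched no row, and 27 of the 28 matched transport genes passed the filter on low counts. Partners are named by a rule: up to 3 called genes in each direction per list with the smallest adjusted p in Spt5 and dom, and up to 2 per list elsewhere. Likeness is the highest Pearson r of log2 CPM among 4385 genes, those with a proper gene name whose mean log2 CPM was 3 or more. No sequence is printed.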

Additional observations from a re-analysis of the deposited data

Results flagged for a closer look

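The scaffold gene sdt differed between the knockdowns of Spt5 and dom by a direct test: its log2 fold change in Spt5 over dom was -1.38 (SE 0.25, edgeR adjusted p 4.3e-04), with all 3 Spt5 libraries below all 3 dom libraries. Of all tested genes 10.7% were separated in that direction. Against the shared LexA libraries it was -0.85 in Spt5 (adjusted p 0.0161) and 0.53 in dom (adjusted p 0.185). The call in Spt5 against LexA was lost without Spt5 replicate 1, Spt5 replicate 2 or LexA replicate 2 (adjusted p 0.123, 0.142 and 0.0956). Per 1000 CPM of outer photoreceptor markers sdt had 36.9, 32.2 and 22.9 CPM in Spt5 against 22.3, 25.5 and 22.9 CPM in LexA, so that its direction against LexA depended on the scale.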

How the results depend on the processing

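The alternative fits run were size factors, filter, block, covariate, DESeq2, the 2 groups alone and libraries left out. In them no log2 fold change of the 10 genes in Spt5 or dom against LexA changed sign. Nor did that of Rab11 in Trl against LexA or of sdt in Spt5 against dom. Single genes were not followed in this way in the other comparisons. The median of the 10 genes changed sign in cnc against LexA (0.11, and -0.05 without cnc replicate 2). In Taf1 against LexA it was -0.05, but 0.09 without Taf1 replicate 1 and 0.05 without LexA replicate 2. On the scale of outer photoreceptor markers, which is not one of these fits, sdt, Patj, kst, Moe, Rab6 and Rab11 in Spt5 replicates 1 and 2 lay above every LexA library, where their log2 fold changes in the fit on all genes were negative. The counts of called genes of the 10 did move. Without 1 library at a time they ran from 0 to 8 for Spt5 against LexA, 1 to 2 for dom against LexA, 0 to 3 for Trl against LexA, 1 to 5 for Spt5 against dom, 0 to 5 for Spt5 against Cdk12, and 3 to 9 for genes that varied over the 10 groups, and stayed at 0 for the other 6 knockdowns. For variation over the 10 groups, the share over all genes in these fits is not given here. A fit on the libraries of the 2 compared groups alone called 0 in Spt5 against LexA (0.0179% of all genes), 6 in dom against LexA (21.8%), 0 in Trl against LexA (9.85%) and 0 in Spt5 against dom (2.82%). In Trl against LexA the count was 0 with DESeq2's size factors, 0 without a filter on low counts and 0 with the background covariate. DESeq2 called 2 in Spt5 against dom and 5 in Spt5 against Cdk12. The causes of these moves were not tested.

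The replicate numbers did not pair the libraries, and with a replicate block the count was 2 in Trl against LexA (Rab6 and Rab11) and 1 in Spt5 against Cdk12 (crb); it moved no other count by over 1.5 times. With 3 libraries per group, 1 of which stands apart in Spt5, the spread within Spt5 limits what could be called there.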
